A study of Mus musculus with 6 samples.

Results

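The genes described here are 50 genes of skeletal and cardiac muscle: the factors that switch muscle genes on, the proteins of the contractile apparatus, and genes of fibre fusion and of the nerve-muscle contact. They were chosen by name, with earlier results of these data known. Counts set beside all genes therefore describe the list and do not test it. A gene was measured by the probe sets annotated to its symbol alone. All 50 were on the array, with 90 probe sets among them, out of 18193 genes and 34945 probe sets with 1 gene in all. Where a gene had several, the probe set with the highest mean stood for it, and 2 further probe sets shared by Myh6 and Myh7 were not used.

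The samples were 6 Affymetrix arrays, all of the mouse melanoma line 4434, which carries mutated Braf, taken at day 20. Cells of both groups carried a lentiviral vector for Oct4, Sox2, Klf4 and blasticidin resistance that answers to doxycycline, and a vector for the transactivator coupled to mCherry. The 3 + dox arrays came from cells given doxycycline and selected with blasticidin, and the 3 − dox arrays from cells kept without doxycycline. It is not stated whether the − dox cells were also selected. Doxycycline, any difference in selection and the 3 factors cannot be told apart on these arrays. It is not stated that replicate arrays were of separate cultures, so a p-value here reflects the spread among the arrays alone, and that spread may be technical.

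Skeletal muscle forms when precursor cells marked by Pax3 or Pax7 switch on the myogenic factors Myf5, Myod1, Myog and Myf6, which bind DNA as dimers at the E-box and work together with Mef2 proteins. Myoblasts then leave the cell cycle, fuse into myotubes and build sarcomeres, in which myosin pulls on actin filaments and the troponin complex answers to calcium. Embryonic isoforms come first, several proteins known from the heart are also made in early skeletal muscle, and adult fibres later take fast or slow isoforms. Melanoma arises from pigment cells of the neural crest, which do not normally make sarcomeres.

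Promoter sequence is shown for 5 of these genes, as the letters that the myogenic factors recognise can be read in it: the marker genes Myog, Myh3 and Tnnc1, the receptor gene Chrng, and Tnnt2, which moved in the opposite direction to most of the set. Each line gives the 250 bases before an annotated start site in RefSeq, build GRCm38.p6, on the plus strand, with every E-box (CANNTG, with N any base) in capitals. The windows lie at chr1:134289754-134290003 for Myog, chr11:67078050-67078299 for Myh3, chr14:31208062-31208311 for Tnnc1, chr1:87205561-87205810 for Chrng and chr1:135836084-135836333 for Tnnt2.
Myog: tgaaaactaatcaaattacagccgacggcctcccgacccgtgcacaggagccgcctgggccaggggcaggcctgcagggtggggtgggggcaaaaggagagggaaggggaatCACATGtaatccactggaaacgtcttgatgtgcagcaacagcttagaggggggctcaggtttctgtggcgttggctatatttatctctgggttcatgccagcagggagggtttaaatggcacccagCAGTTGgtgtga
Myh3: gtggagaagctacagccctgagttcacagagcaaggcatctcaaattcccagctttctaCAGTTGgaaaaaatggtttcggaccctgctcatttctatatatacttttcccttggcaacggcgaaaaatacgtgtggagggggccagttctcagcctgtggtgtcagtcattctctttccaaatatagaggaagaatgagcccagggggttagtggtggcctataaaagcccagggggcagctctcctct
Tnnc1: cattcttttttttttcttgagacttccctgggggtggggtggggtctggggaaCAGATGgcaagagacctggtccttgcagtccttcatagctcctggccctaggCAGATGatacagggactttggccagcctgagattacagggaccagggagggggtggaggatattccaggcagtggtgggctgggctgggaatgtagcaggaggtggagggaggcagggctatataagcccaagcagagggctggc
Chrng: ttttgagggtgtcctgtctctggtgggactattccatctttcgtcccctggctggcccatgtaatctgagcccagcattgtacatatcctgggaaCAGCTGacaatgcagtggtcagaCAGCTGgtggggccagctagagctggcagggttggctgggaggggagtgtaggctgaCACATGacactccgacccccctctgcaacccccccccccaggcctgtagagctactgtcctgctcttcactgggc
Tnnt2: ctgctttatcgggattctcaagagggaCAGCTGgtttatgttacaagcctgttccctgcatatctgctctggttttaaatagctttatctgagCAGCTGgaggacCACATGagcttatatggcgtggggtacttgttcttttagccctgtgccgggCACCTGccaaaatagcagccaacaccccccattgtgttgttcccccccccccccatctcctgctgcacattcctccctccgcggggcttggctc

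In these windows Myog had an E-box at 12 and at 138 bases before the start, Myh3 had 1 at 191 bases with a TATAAA at 29 bases, and Tnnc1 had the same letters CAGATG at 145 and 197 bases. Chrng held CAGCTG at 132 and 155 bases, and Tnnt2 held it at 157 and 223 bases. Another Tnnt2 window, not shown, held no CAGCTG and 1 E-box, at 156 bases. Of the 50 genes 40 were in the promoter table, 6 of them with several windows, which made 47 windows. CANNTG, which reads as an E-box on both strands, was found in 36 of the 47 windows (76.6%) and in 66.2% of all 32851 windows of this length. The form CAGCTG, its own reverse complement, was found in 14 of 47 (29.8%), against 13.0% of all windows, and CACCTG, read on either strand, in 9 of 47 (19.1%) against 17.2%. CAGCTG stood in 9 of 22 windows (40.9%) of genes whose + dox values all lay below their − dox values, and in 5 of 25 windows (20.0%) of the others. Windows of a gene can overlap and are not independent. Tnni1 had overlapping windows that held the same CAGCTG, at 68 and 158 bases, and the Ldb3 windows overlapped without one. Actn3, Tnnt3, Myom2 and Mymk, whose + dox values also all lay below, had no window. A match of letters is a description and not a bound site.

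The markers fixed for this set were present in − dox cells: Myog stood at 8.08 to 9.88, Myh3 at 7.33 to 8.06 and Tnnc1 at 8.63 to 9.06 on the log2 scale of the deposited values. The lower quartile of all probe sets was 3.88 on that scale. Of 8 melanocyte markers, Tyr, Mlana and Gpr143 were below it on all 6 arrays, Tyrp1 lay between 3.5 and 4.03, Dct between 4.21 and 4.61, Pmel between 5.25 and 5.43, Sox10 between 6.12 and 6.46 and Mitf, the highest, between 6.17 and 8.15. Array + dox 1 stood apart. Its values over all genes correlated with + dox 2 and 3 at r = 0.987 and 0.984 (over genes, which are not independent replicates). With − dox 1, 2 and 3 they correlated at 0.976, 0.986 and 0.984, whereas + dox 2 and + dox 3 correlated with each other at 0.994. Array − dox 1 also stood apart, with 0.984 to − dox 2 and 0.985 to − dox 3, whereas − dox 2 and − dox 3 correlated at 0.997. Results are also given without + dox 1, and without − dox 1 where that changed a call. In RNA of whole cultures, fewer cells that make muscle proteins and less of their RNA per cell cannot be told apart.

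Muscle genes were lower in + dox cells more often than they were higher. Of the 50 genes 9 were called lower (18.0%) and 1 higher by limma with Benjamini-Hochberg adjustment over all 18193 genes, against 1.80% called lower and 3.07% called higher among all genes. In 23 genes (46.0%) every + dox array lay below every − dox array, in 2 every + dox array lay above, and in 25 the groups overlapped. Among all genes 12.6% were separate and lower and 14.3% separate and higher. An unadjusted limma p under 0.05 was found in 26 lower and 2 higher muscle genes, and in 1927 lower and 2015 higher of all 18193 genes. The mean was more than 2-fold lower in 22 muscle genes (44.0%) and more than 2-fold higher in 2, against 363 and 571 of all genes. The median change of the 50 was −0.59 on the log2 scale and that of all genes 0.01. As the list was chosen with earlier results known, these shares are a description.

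**Figure D1:**
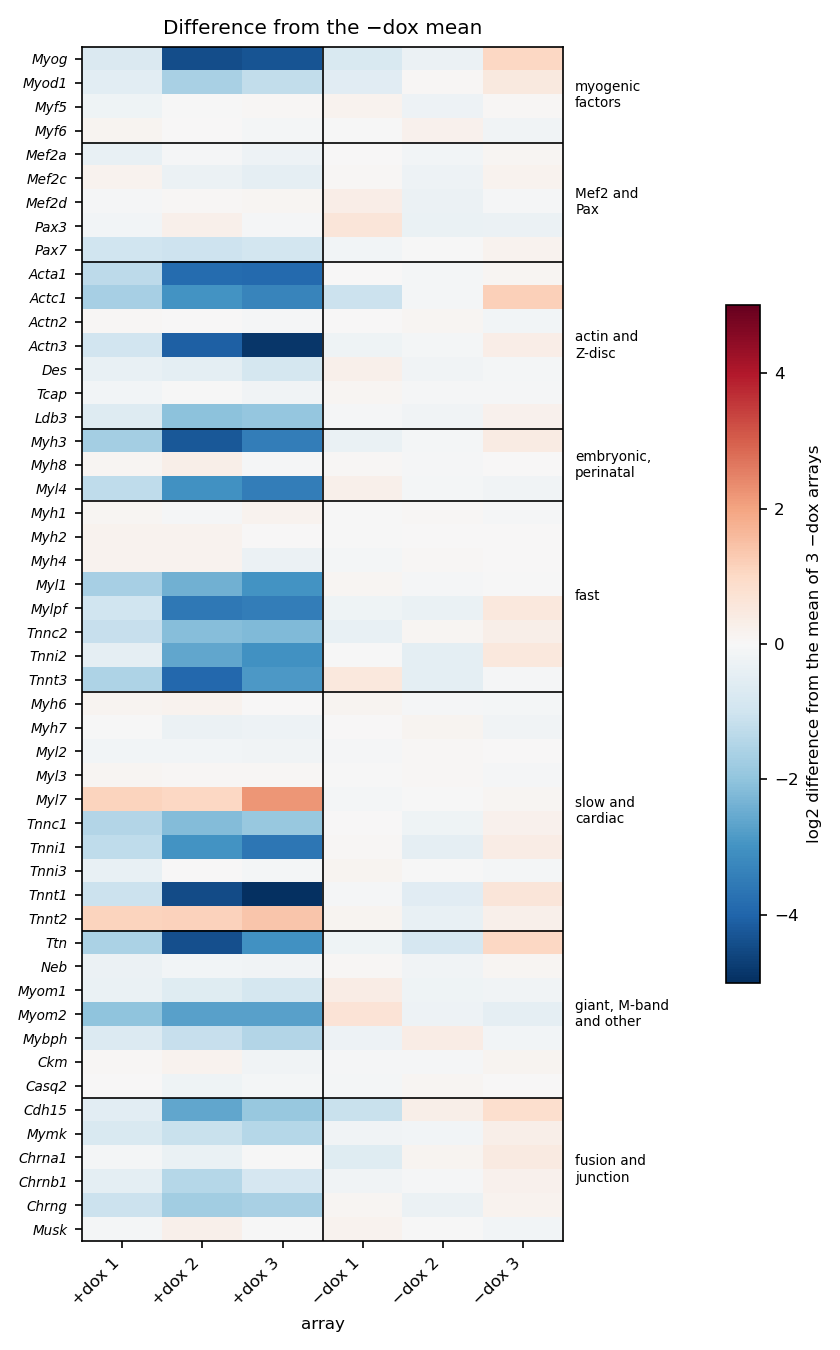
Rows are the 50 muscle genes by role, columns the 6 arrays, and colour is the log2 difference of each array from the mean of the 3 − dox arrays of that gene, blue for lower and red for higher. The median over the 50 genes was −0.38 on + dox 1, −0.55 on + dox 2 and −0.85 on + dox 3, and Tnnt2 and Myl7 are the 2 genes in which every + dox array lies above every − dox array.

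The difference was not equal on the + dox arrays. Against the − dox mean, the median over the 50 genes was −0.38 on + dox 1, −0.55 on + dox 2 and −0.85 on + dox 3, whereas over all genes it was 0.02, 0.02 and −0.02. In 22 of the 50 genes + dox 1 lay above both other + dox arrays and below all − dox arrays, a pattern that 7.34% of all genes had. Only genes that were separate and lower can have this pattern. It was seen in 22 of 23 such muscle genes, and in 1335 of 2296 such genes among all genes. The − dox arrays also varied, with − dox 3 the highest of them in 26 of the 50 genes (52.0%), against 23.7% of all genes. Their medians against their own mean were −0.01, −0.08 and 0.09.

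Of the 4 myogenic factors none passed the test over all genes, although 2 were more than 2-fold lower on average and had an unadjusted limma p under 0.05. Myog, which encodes myogenin and drives the step from myoblast to myotube, stood at 8.10, 4.39 and 4.53 on + dox arrays 1, 2 and 3, and at 8.08, 8.54 and 9.88 on the − dox arrays. Arrays + dox 2 and 3 were far below all the others, while + dox 1 lay just above − dox 1, so the groups overlapped. The difference was −3.16 (SE 1.04, 8.94-fold, 95% confidence interval −5.65 to −0.67, limma adjusted p = 0.141). Without + dox 1 it was −4.37 (adjusted p = 0.00864). With any other array left out its adjusted p lay between 0.128 and 0.379. Myod1, which commits cells to the muscle lineage, stood at 9.32, 8.20 and 8.62 on the + dox arrays and at 9.29, 9.91 and 10.32 on the − dox arrays. Again + dox 1 lay just above − dox 1 and the other + dox arrays below every − dox array. Its difference was −1.13 (SE 0.36, adjusted p = 0.129), and −1.43 without + dox 1 (adjusted p = 0.0527).

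Myf5 and Myf6, the myogenic factors that act earliest and latest, were low everywhere. Myf5 had 2.33, 2.52 and 2.59 on the + dox and 2.73, 2.31 and 2.61 on the − dox arrays. Myf6 had 3.0, 2.87 and 2.76 on the + dox and 2.83, 3.06 and 2.70 on the − dox arrays. Both stayed below the lower quartile on all 6 arrays, with differences of −0.07 and 0.01, and the groups overlapped.

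Among the 5 Mef2 and Pax factors only Pax7 passed the test. Pax7, a factor of muscle stem cells, had 3.90, 3.85 and 3.97 on the + dox arrays against 4.75, 4.87 and 5.05 on the − dox arrays. The groups were far apart compared with their spread, at low values. Pax7 fell by 0.98 on the log2 scale (SE 0.11, 1.98-fold, limma adjusted p = 0.00936), and its other probe set differed by −0.50 without passing. Its call was lost without + dox 2 (adjusted p = 0.0530) or − dox 2 (0.0540). Pax3, a factor of muscle precursors and also of melanocytes, lay between 7.77 and 8.72 with a difference of 0.01. Mef2a, Mef2c and Mef2d, the partners of the myogenic factors, differed by −0.22, −0.19 and 0.02. Mef2d had a further probe set, named after its values were seen, at 8.40, 8.49 and 8.64 on the + dox and 7.66, 7.95 and 7.78 on the − dox arrays, a difference of 0.71 that passed when all probe sets were tested.

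The 7 actin and Z-disc genes all had negative differences, with a median of −1.53, but limma called none with all 6 arrays. In 5 of them the groups did not overlap, against 12.6% of all genes that were separate and lower. An unadjusted limma p under 0.05 was found in 5, against 1927 lower genes of all 18193. Acta1, the actin of the adult skeletal muscle thin filament, stood at 9.45, 6.90 and 6.87 on the + dox and at 10.79, 10.65 and 10.84 on the − dox arrays. The − dox arrays lay close together, + dox 1 lay 1.31 below their mean, and the other + dox arrays lay 3.86 and 3.89 below it. The difference was −3.02 (SE 0.67, 8.11-fold, limma adjusted p = 0.0574), and −3.88 without + dox 1 (adjusted p = 0.000131). With any other array left out its adjusted p lay between 0.0771 and 0.193. Actn3, the alpha-actinin of fast fibres that anchors actin at the Z-disc, stood at 9.47, 6.37 and 5.58 on the + dox and 10.21, 10.32 and 10.78 on the − dox arrays. It had the same order of arrays, with a difference of −3.30 (SE 0.94, adjusted p = 0.103) that was −4.46 without + dox 1 (adjusted p = 0.00151) and −2.52 without + dox 3 (adjusted p = 0.278).

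The other 5 genes of this group include 2 with large differences, named after their values were seen. Actc1, the cardiac actin that early skeletal muscle also makes, had 6.88, 5.56 and 5.22 on the + dox and 7.46, 8.42 and 9.72 on the − dox arrays (difference −2.65, limma adjusted p = 0.0735). Ldb3, a Z-disc protein that holds alpha-actinin, had 6.10, 4.68 and 4.81 against 6.68, 6.57 and 6.93 (difference −1.53, adjusted p = 0.0712). In both every + dox array was below every − dox array. The 2 other Ldb3 probe sets differed by −0.03 and −0.01. Des, the muscle intermediate filament desmin, differed by −0.58 (adjusted p = 0.120), and Actn2 and Tcap, parts of the Z-disc, by −0.00 and −0.11. The other Des probe set differed by 0.07. Without + dox 1, Acta1, Actc1, Actn3 and Ldb3 passed the test, 4 of the 7.

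Myosin genes of embryonic muscle fell. Myh3, the embryonic myosin heavy chain, stood at 5.97, 3.43 and 4.20 on the + dox and at 7.33, 7.57 and 8.06 on the − dox arrays. All + dox arrays were below all − dox arrays, and + dox 1 was the highest of the + dox arrays. Myh3 fell by 3.12 (SE 0.62, 8.69-fold, limma adjusted p = 0.0433). Myl4, the light chain of embryonic muscle and of the heart's atria, stood at 6.79, 5.03 and 4.62 on the + dox and 8.32, 7.98 and 7.89 on the − dox arrays. The groups did not overlap, and the fall was 2.58 (SE 0.54, 5.99-fold, adjusted p = 0.0483). Myh8, the perinatal heavy chain, lay between 2.64 and 3.01 on all arrays, below the lower quartile. Without + dox 1 the differences were −3.84 for Myh3 (adjusted p = 0.00273) and −3.24 for Myl4 (0.00121). Without any of + dox 2, + dox 3, − dox 2 or − dox 3 both missed the threshold, with adjusted p up to 0.164 for Myh3 and 0.17 for Myl4, and Myl4 also missed it without − dox 1 (0.0699). A further Myl4 probe set, at 4.53 to 4.80, differed by −0.08. With the mean of the Myl4 probe sets the difference was −1.33 (adjusted p = 0.0553), and with adjustment over all probe sets its adjusted p was 0.0541, so the call was lost in both.

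**Figure D2:**
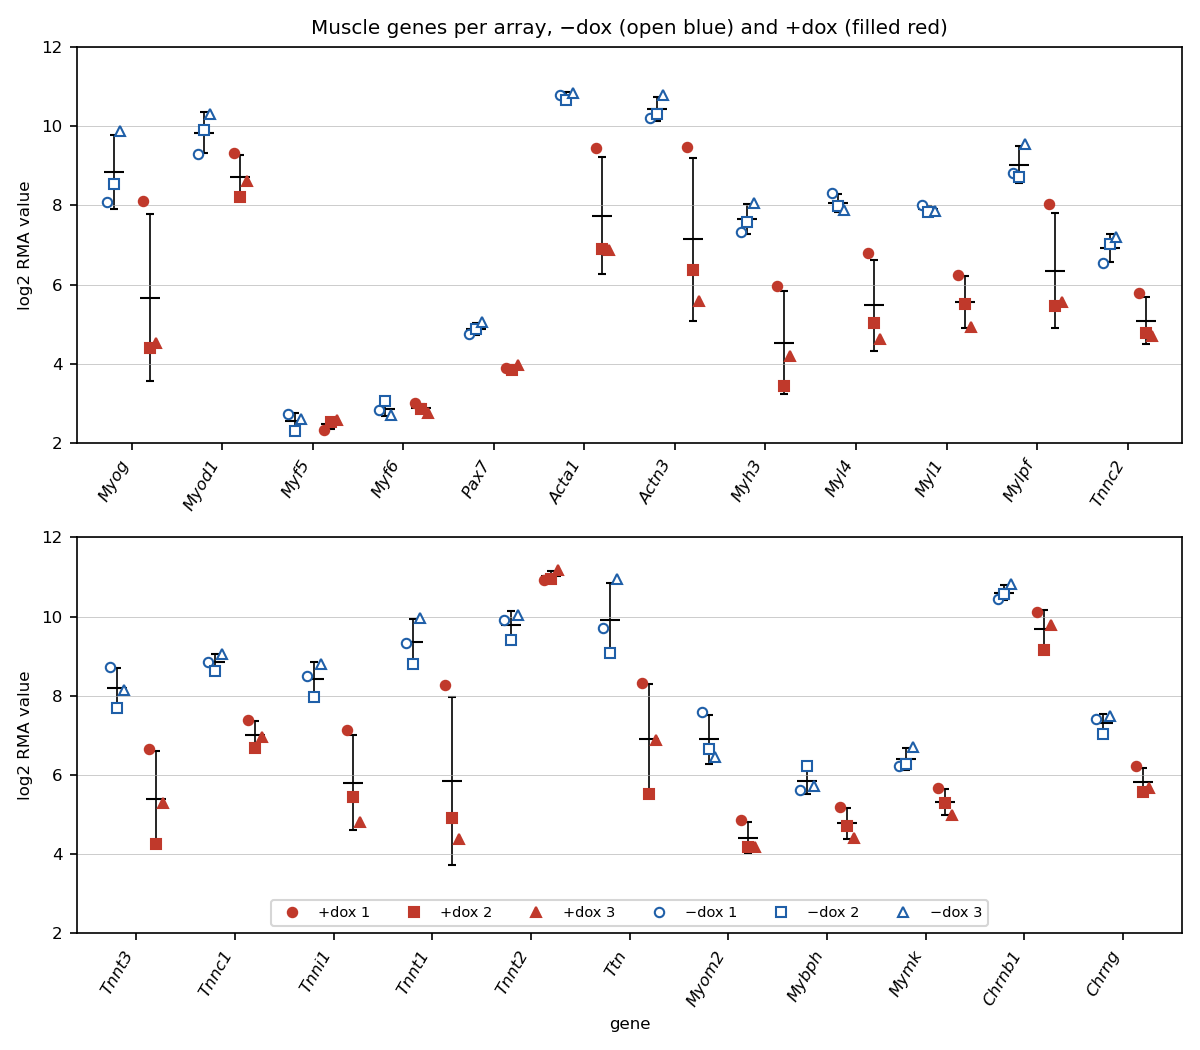
Log2 expression of 23 muscle genes on each array, with open blue symbols for − dox and filled red symbols for + dox, with a shape for each replicate number, and horizontal bars for the mean with whiskers of 1 SD (3 arrays). Tnnt2 is the gene with higher + dox values, Myf5 and Myf6 lie at the bottom of the scale in both groups, and + dox 1 (red circle) stands above the other + dox arrays in genes such as Myog (8.10 against 4.39 and 4.53).

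Fast-fibre genes split by kind: the 5 light-chain and troponin genes were 3.56-fold to 6.92-fold lower on average. The 3 heavy-chain genes were low in both groups by the probe sets that represent them. Myl1, the essential light chain of fast fibres, stood at 6.23, 5.50 and 4.92 on the + dox and at 8.01, 7.84 and 7.87 on the − dox arrays. The − dox arrays were nearly equal and every + dox array was below them. Myl1 fell by 2.36 (SE 0.31, 5.12-fold, limma adjusted p = 0.0156). Tnnc2, the calcium-binding troponin of fast fibres, stood at 5.79, 4.78 and 4.71 on the + dox and 6.54, 7.02 and 7.21 on the − dox arrays. It fell by 1.83 (SE 0.32, 3.56-fold, adjusted p = 0.0330), again without overlap. Leaving out + dox 2, − dox 2 or − dox 3 ended both calls, and leaving out + dox 3 that of Tnnc2, with adjusted p up to 0.0786 for Myl1 and 0.130 for Tnnc2.

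Other fast-fibre genes missed the threshold with all 6 arrays. Tnnt3, the troponin that ties the complex to tropomyosin in fast fibres, had 6.65, 4.25 and 5.30 on the + dox and 8.72, 7.70 and 8.15 on the − dox arrays, a difference of −2.79 (SE 0.59, limma adjusted p = 0.0520). Mylpf, the regulatory light chain of fast fibres, had 8.03, 5.47 and 5.56 against 8.82, 8.71 and 9.56, a difference of −2.68 (SE 0.69, adjusted p = 0.0821). In both, the groups did not overlap and + dox 1 was nearest to the − dox arrays. Tnni2, the inhibitory troponin of fast fibres, differed by −2.02 (adjusted p = 0.141), and + dox 1 at 7.53 lay above − dox 2 at 7.48. Without + dox 1 all 5 light-chain and troponin genes passed, with differences of −2.18 for Tnnc2 to −3.52 for Mylpf.

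The adult fast heavy chains were near the low end of the scale. Myh2 and Myh4 lay below the lower quartile on all arrays, at 3.10 to 3.32 and 2.59 to 3.08. Myh1 depended on the probe set: the one that represents it lay between 4.16 and 4.37 on all arrays. Another, named after its values were seen, stood at 3.05, 2.83 and 2.80 on the + dox and at 3.26, 5.08 and 4.37 on the − dox arrays (difference −1.34, limma adjusted p over probe sets = 0.138). There − dox 2 and − dox 3 were the high arrays, and − dox 1 lay just above the + dox arrays. The remaining Myh1 probe set also had its high values on − dox 2 and − dox 3 (4.75 and 4.23). It differed by −1.14 with overlap between the groups (limma adjusted p over probe sets = 0.215).

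Slow and cardiac sarcomere genes went both ways. Tnnc1, the calcium-binding troponin of slow fibres and the heart, stood at 7.38, 6.67 and 6.97 on the + dox and 8.86, 8.63 and 9.06 on the − dox arrays. The groups were well apart, and Tnnc1 fell by 1.84 (SE 0.20, 3.59-fold, limma adjusted p = 0.00936). Tnnt2, the tropomyosin-binding troponin of the heart and of embryonic skeletal muscle, stood at 10.92, 10.96 and 11.17 on the + dox and at 9.92, 9.41 and 10.05 on the − dox arrays. All + dox arrays were above all − dox arrays. Tnnt2 rose by 1.22 (SE 0.18, 2.33-fold, adjusted p = 0.0211), a further probe set that passed differed by 1.20, and another was low with a difference of 0.04. The probe set that represents Tnnt2 is of a design whose probes may also match other transcripts. Tnnc1 missed the threshold without + dox 3 (adjusted p = 0.0526) or − dox 3 (0.0537), and Tnnt2 without + dox 2 (0.0887), + dox 3 (0.0943) or − dox 3 (0.0611).

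The slow skeletal troponins had the opposite sign to Tnnt2. Tnnt1, the slow counterpart of Tnnt2 and Tnnt3, stood at 8.27, 4.90 and 4.37 on the + dox and 9.32, 8.81 and 9.95 on the − dox arrays. Tnni1, the slow inhibitory troponin, stood at 7.14, 5.44 and 4.82 on the + dox and 8.50, 7.96 and 8.81 on the − dox arrays. The groups did not overlap in either gene, and + dox 1 was nearest to − dox. Tnnt1 differed by −3.51 (SE 0.99, 11.4-fold, limma adjusted p = 0.100) and Tnni1 by −2.62 (SE 0.58, adjusted p = 0.0566). Without + dox 1 both passed, at −4.73 (adjusted p = 0.00224) and −3.29 (adjusted p = 0.00411), whereas without + dox 3 Tnnt1 had −2.78 (adjusted p = 0.285).

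Myl7, the regulatory light chain of the atria, was named after its values were seen, as the other muscle gene that was higher on every + dox array. It stood at 5.26, 5.17 and 6.34 on the + dox and at 4.04, 4.11 and 4.25 on the − dox arrays. Array + dox 3 was the highest, and + dox 1 was not between the groups. The difference was 1.46 (SE 0.31, 2.74-fold, limma adjusted p = 0.0510), and 1.62 without + dox 1 (adjusted p = 0.0441). Of the other heart genes, Myh6, Myh7, Myl2, Myl3 and Tnni3, which encode cardiac or slow heavy chains, light chains and the cardiac inhibitory troponin, differed by 0.11, −0.19, −0.16, 0.06 and −0.15, and limma called none of these 5, also at an unadjusted p under 0.05. Their values on all arrays lay between 2.42 for Myh6 and 5.58 for Myl3.

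Of the giant, M-band and other fibre genes Myom2 passed. Myom2, a myomesin that links myosin filaments at the M-band of fast fibres, stood at 4.87, 4.19 and 4.19 on the + dox and at 7.60, 6.65 and 6.45 on the − dox arrays. Every + dox array was below every − dox array, and here − dox 1 was the highest. Myom2 fell by 2.48 (SE 0.34, 5.59-fold, limma adjusted p = 0.0162). Its other probe sets differed by −1.67 to 0.09, and its representing probe set may also match other transcripts. The call was lost without + dox 2, + dox 3, − dox 2 or − dox 3, at adjusted p up to 0.0800.

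Ttn, the giant spring titin, stood at 8.32, 5.52 and 6.88 on the + dox and 9.72, 9.09 and 10.94 on the − dox arrays. The spread within each group was wide, but the groups did not overlap. The difference was −3.01 (SE 0.76, 8.06-fold, limma adjusted p = 0.0790), and −3.72 without + dox 1 (adjusted p = 0.0266). The 5 other Ttn probe sets differed by −2.94 to 0.10. Mybph, a myosin-binding protein, had 5.19, 4.72 and 4.41 on the + dox and 5.62, 6.23 and 5.72 on the − dox arrays, a difference of −1.08 (SE 0.24, adjusted p = 0.0579). It too was separate, and passed without + dox 1 (−1.29, adjusted p = 0.0254). Myom1, the related myomesin, differed by −0.61, Neb, the giant protein nebulin, by −0.20 at values below the lower quartile, and Casq2, the cardiac calcium store protein, by −0.11. Ckm, the creatine kinase of mature fibres, lay between 5.37 and 5.72 with a difference of 0.01. Its other probe set was separate and lower, with a difference of −0.36 (limma adjusted p over probe sets = 0.232).

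Genes of fusion and of the neuromuscular junction had a median difference of −1.0 over 6 genes, and 2 fell. Mymk, the membrane protein myomaker that myoblasts need to fuse, stood at 5.66, 5.29 and 4.99 on the + dox and at 6.22, 6.28 and 6.71 on the − dox arrays. The groups did not overlap, and Mymk fell by 1.09 (SE 0.21, 2.13-fold, limma adjusted p = 0.0406). Chrng, the fetal gamma subunit of the muscle acetylcholine receptor, stood at 6.22, 5.56 and 5.67 on the + dox and 7.40, 7.03 and 7.49 on the − dox arrays. It too was separate and fell by 1.49 (SE 0.21, 2.81-fold, adjusted p = 0.0178), and another of its probe sets, at −2.32, passed among probe sets. Its remaining probe set lay below the lower quartile on all arrays and differed by −0.06, with overlap. Without + dox 2, + dox 3, − dox 2 or − dox 3 both calls were lost, with adjusted p up to 0.146 for Mymk and 0.0858 for Chrng.

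The other receptor subunits of this role group, Chrnb1 and Chrna1, differed less than Chrng. Among the further junction and fusion genes, the receptor subunit genes Chrnd and Chrne differed by −2.33 and 0.03. Chrnd thus differed more than Chrng, without overlap between the groups, but missed the threshold (limma adjusted p = 0.0675). Without + dox 1 Chrnd differed by −2.97 (adjusted p = 0.00452). Chrnb1, the beta subunit, stood at 10.12, 9.16 and 9.78 on the + dox and 10.43, 10.56 and 10.82 on the − dox arrays, without overlap. Its difference was −0.92 (SE 0.25, limma adjusted p = 0.0937), and −1.13 without + dox 1 (adjusted p = 0.0373). Chrna1, the alpha subunit, lay between 10.83 and 11.91 with − dox 1 the lowest array and a difference of −0.15. Cdh15, the cadherin of myoblasts, had 9.09, 7.03 and 7.73 on the + dox and 8.51, 9.92 and 10.47 on the − dox arrays, a difference of −1.68 (adjusted p = 0.205). Here + dox 1 was above − dox 1, as in Myog and Myod1, and the groups overlapped. Chrna1, Cdh15, Chrnd and Chrne were named after their values were seen. Musk, the kinase that gathers receptors at the junction, differed by 0.05.

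Leaving out + dox 1 raised the number of called muscle genes from 10 to 24, of which 22 were lower and 2 higher, and all 10 called with 6 arrays were among them. Without it 3.83% of all genes were called lower and 5.24% higher. The gained genes were Acta1, Actc1, Actn3, Chrnb1, Ldb3, Mybph, Myl7, Mylpf, Myog, Tnni1, Tnni2, Tnnt1, Tnnt3 and Ttn. Leaving out − dox 1 instead, with 2.33% of all genes called lower and 3.94% higher, kept 9 of the 10, lost Myl4 and gained Actc1. Leaving out another array kept few: Tnnc1 without + dox 2, Pax7 and Myl1 without + dox 3, where Myl7 was gained, Tnnc1 and Tnnt2 without − dox 2, and Pax7 without − dox 3. In 17 of the 50 genes the values of all 6 arrays lay within 0.5 on the log2 scale.

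**Figure D3:**
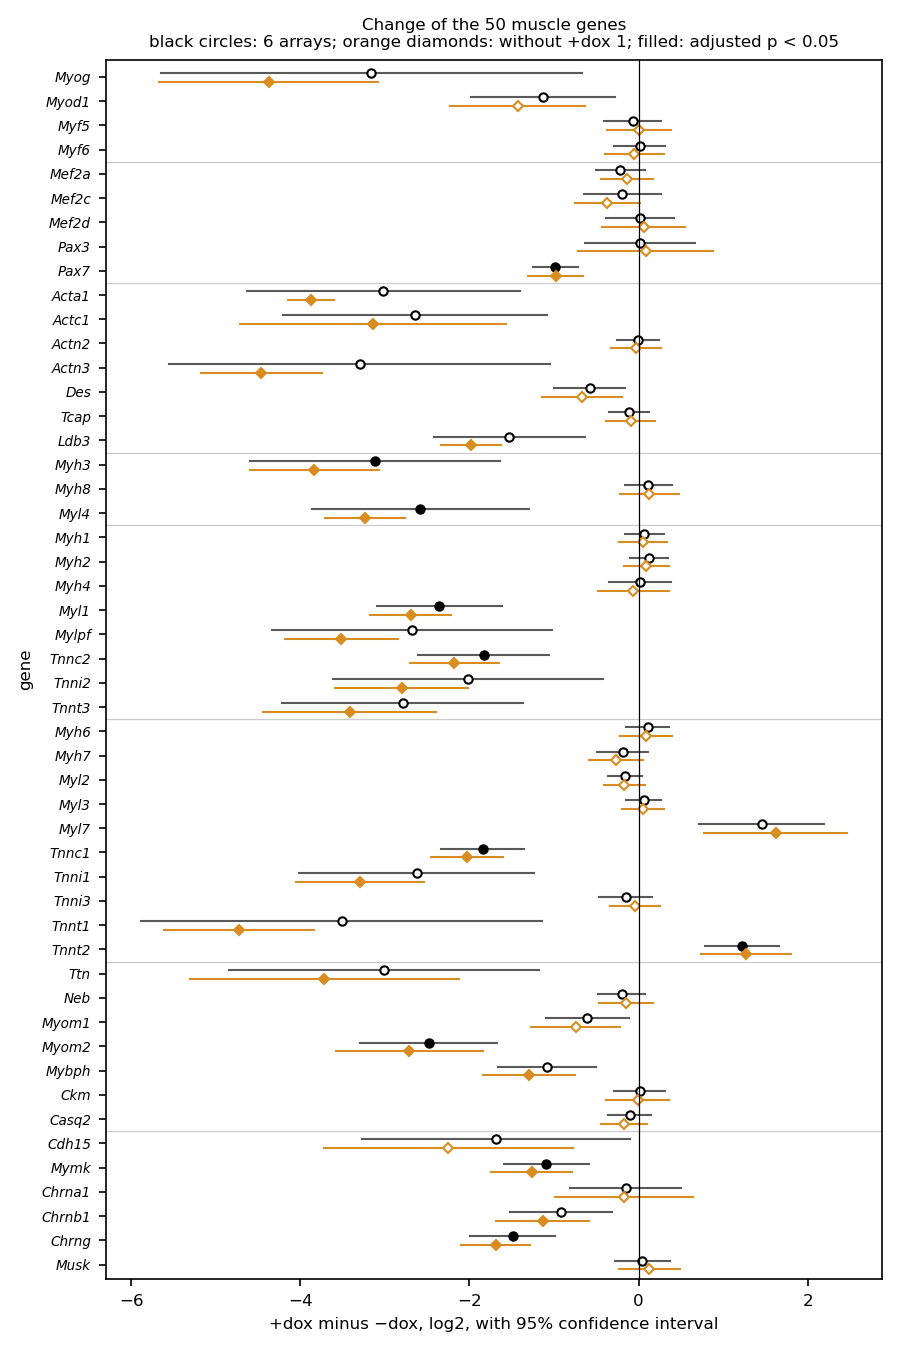
Difference of + dox from − dox (log2, with 95% confidence interval) for the 50 muscle genes by role, from all 6 arrays (black circles) and without + dox 1 (orange diamonds), with filled symbols where the limma adjusted p was under 0.05. With 6 arrays 9 genes are called lower and 1 higher, and without + dox 1 these are 22 and 2.

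Further genes of the muscle programme, 79 measured of 84 listed, are known partners, targets or neighbours of the 50. Of these 79, 9 were called lower and 1 higher (1.80% and 3.07% of all genes), 26 were separate and lower and 4 separate and higher (12.6% and 14.3% of all genes), and the median difference was −0.18. Among 12 partners and inhibitors of the myogenic factors 2 fell. Six4, a homeobox factor upstream of the myogenic factors, stood at 7.89, 7.22 and 7.11 on the + dox and 9.15, 9.04 and 9.67 on the − dox arrays and fell by 1.88 (SE 0.26, limma adjusted p = 0.0162). Its partner Eya1 stood at 8.13, 7.09 and 7.37 against 9.0, 8.87 and 9.13 and fell by 1.47 (SE 0.26, adjusted p = 0.0338). The groups were separate in both. Id1, an inhibitor that keeps the partners of the myogenic factors from DNA, was named after its values were seen: it stood at 9.84, 9.97 and 10.91 on the + dox and 7.82, 8.79 and 8.82 on the − dox arrays, a difference of 1.76 (adjusted p = 0.0522). The related inhibitors Id2 and Id3 differed by −0.99 (adjusted p = 0.267) and 0.94 (adjusted p = 0.339), so the family did not share a sign.

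Among 8 cardiac transcription factors Isl1, a factor of heart precursors that is also made in neurons, went from 8.04, 7.38 and 7.66 on the − dox to 6.72, 5.76 and 5.94 on the + dox arrays, and so fell by 1.55 (SE 0.29, limma adjusted p = 0.0362). Among 12 genes of excitation-contraction coupling Ryr1, the calcium release channel of skeletal muscle, went from 5.99, 5.41 and 6.11 to 4.78, 4.26 and 3.98 and fell by 1.5 (SE 0.26, adjusted p = 0.0318). In both genes all + dox arrays were below all − dox arrays, with + dox 1 the highest of them.

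The dystrophin complex, which ties the cytoskeleton to the matrix, was read together with the muscle integrin gene Itga7. These 8 genes went both ways, with 2 lower (Sgca and Itga7) and 1 higher (Dmd). Dmd, the gene of dystrophin, stood at 8.14, 8.76 and 8.34 on the + dox and at 6.80, 6.42 and 6.5 on the − dox arrays. It rose by 1.84 (SE 0.19, 3.58-fold, limma adjusted p = 0.0073), and no array left out ended its call. Sgca, a sarcoglycan of striated muscle, stood at 7.56, 6.66 and 6.26 on the + dox and 9.10, 8.54 and 9.03 on the − dox arrays. It fell by 2.06 (SE 0.34, adjusted p = 0.0275). Itga7, the laminin-binding integrin of muscle, stood at 8.59, 8.26 and 8.29 against 9.51, 9.43 and 9.69 and fell by 1.16 (SE 0.13, adjusted p = 0.00965). None of the 3 overlapped between the groups.

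Among 24 further sarcomere and turnover genes, Unc45b, the chaperone that folds muscle myosin, stood at 4.57, 3.8 and 3.7 on the + dox and 5.86, 5.86 and 6.99 on the − dox arrays and fell by 2.21 (SE 0.37, limma adjusted p = 0.0290). Among 8 genes of energy supply, Eno3, the muscle enolase of glycolysis, stood at 9.52, 8.22 and 8.17 against 10.14, 10.56 and 10.75 and fell by 1.85 (SE 0.38, adjusted p = 0.0479). Both were separate. Among 7 further junction and fusion genes, Mymx, the small protein myomixer that acts with Mymk, stood at 3.37, 2.75 and 3.11 against 4.39, 4.30 and 5.08 and fell by 1.51 (SE 0.25, adjusted p = 0.0281). It was below the lower quartile on every + dox array and above it on every − dox array. Apart from Dmd, the called genes of these lists lost their call when + dox 2 or + dox 3 was left out, with adjusted p up to 0.168 for Eno3, and all of them also without − dox 3.

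**Figure D4:**
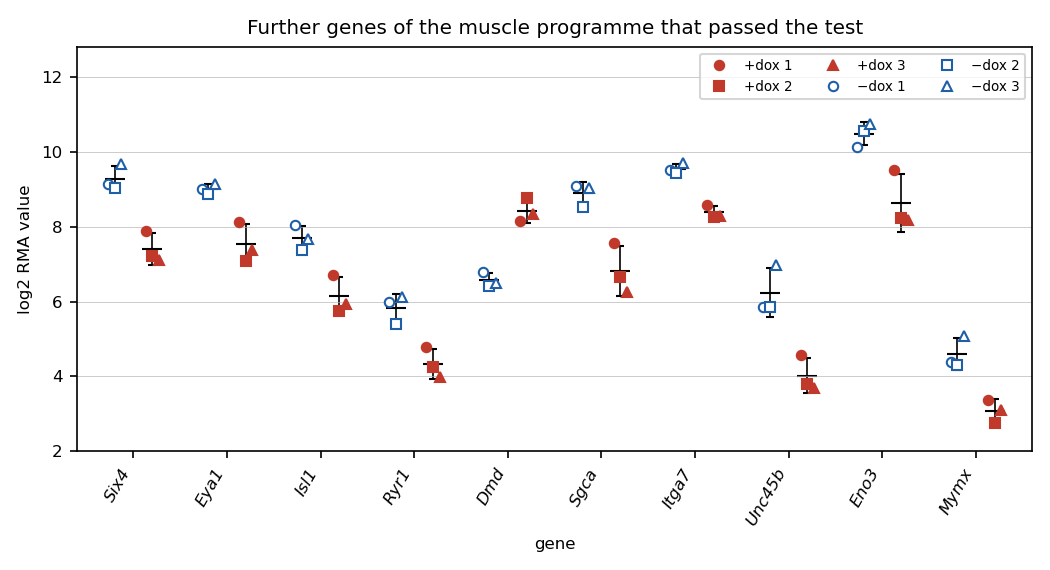
Log2 expression on each array of the 10 further muscle-programme genes that passed the test, with open blue symbols for − dox and filled red symbols for + dox, and bars for the mean with whiskers of 1 SD (3 arrays). Dmd lies higher on the + dox arrays (8.14 to 8.76 against 6.42 to 6.80), and the other 9 lie lower.

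Markers of other cell types that a culture might hold were read on the same arrays. Of 7 smooth muscle markers 1 rose and none fell: Actg2, the enteric smooth muscle actin, stood at 8.51, 10.60 and 11.38 on the + dox and 5.61, 5.86 and 6.37 on the − dox arrays (rise of 4.22, limma adjusted p = 0.0275). The median difference of the 7 was 0.06, and their summed level on the linear scale ranged from 1436 to 4212 on the + dox and from 858 to 1116 on the − dox arrays. Of 7 fibroblast and 8 melanocyte markers limma called none, and at an unadjusted p under 0.05 there were 1 higher and 1 lower fibroblast marker and 0 melanocyte markers. Without + dox 1, 2 fibroblast markers passed, the collagen gene Col3a1 lower (−1.69, adjusted p = 0.0375) and the proteoglycan gene Dcn higher (1.01, adjusted p = 0.0190). Median differences were 0.03 for fibroblast and 0.03 for melanocyte markers, with summed levels of 580 to 971 against 994 to 1754 for fibroblast and 257 to 304 against 280 to 458 for melanocyte markers. For the 50 muscle genes the summed level was 9801 to 13923 on the + dox and 17633 to 25463 on the − dox arrays. No smooth muscle marker and 1 fibroblast marker was below the lower quartile on all arrays. The part of these cell types in the muscle gene differences was not tested.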

How the data were processed

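RNA of 3 + dox and 3 − dox samples, grouped by their labels, was measured on an Affymetrix whole-genome mouse array. In Chipster the authors applied RMA, which gives log2 expression values. Software version and chip definition file are not given in the sources used here. Of 45101 probe sets 0 had a missing value, with column medians of 5.33 to 5.37 and lower quartiles of 3.84 to 3.90. No pair of arrays shared over 2.11% identical values.

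Names were taken from a 2016 platform annotation, and RefSeq (GRCm38.p6) changed 0 of them. Of the probe sets 34945 had 1 gene, and 932 with several were left out. The test was limma's lmFit and eBayes (limma 3.58.1, R 4.3.3; two-sided, no covariate), with Benjamini-Hochberg adjustment over 18193 genes at 0.05. Differences are + dox minus − dox. Calls were tested on simulated data for this comparison of 18193 genes, with 200 genes changed in each of 5 runs: 62.8% were recovered at a log2 change of 1 and 88.4% at 2, and 5.09% of calls were false. The simulated noise was independent between genes, without a shift shared over an array such as that of + dox 1. These shares may therefore not hold for the muscle genes. The number of arrays limits the precision.

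The 50 genes and the other lists were chosen with earlier results of these data known. Values per array were given for Myog, Myh3, Tnnc1, the other myogenic factors, every gene that passed, and per role up to 2 further genes with the largest difference whose groups did not overlap and whose mean in a group exceeded 3.88. Of each further list up to 3 genes that passed were named. Motifs were searched in RefSeq promoter windows cut at the start site. Alternatives tried were a replicate block, other choices of probe set, filters on dim genes, trend and robust settings, quantile normalisation, median centring, each array left out, both arrays numbered 1 left out, and other thresholds.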

Additional observations from a re-analysis of the deposited data

How the results depend on the processing

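With all 6 arrays, 9 muscle genes were called lower and 1 higher, and 328 and 558 of all genes. Leaving out 1 array gave 1 to 22 lower and 0 to 2 higher muscle genes, with 24 to 697 lower and 90 to 953 higher over all genes; + dox 1 gave the highest counts. Without both arrays numbered 1 there were 25 lower and 2 higher muscle genes, and 1782 lower and 1876 higher of all genes. At an adjusted threshold of 0.01 these were 2 and 0, and 27 and 101. By limma's treat against a 2-fold change they were 0 and 0, and 5 and 46. With an unadjusted p under 0.05 and a difference over 2-fold, 22 muscle genes were lower and 2 higher. Of all 18193 genes 363 were over 2-fold lower and 571 over 2-fold higher at any p, and those with such a p are among these. The higher count was 2 with the probe set of largest variance, without the dimmest 20% of genes, with trend and robust settings, with quantile normalisation and with median centring; the gained gene was Mef2d with the first of these and Myl7 with the others. Without the dimmest 20% of genes Tnnt3 was also gained, as lower. Without the dimmest 40% Acta1, Tnni1 and Tnnt3 were gained and Pax7 was not among the genes tested. Myl4 was lost with the mean of all probe sets and with probe sets in place of genes. Of the 40 probe sets that did not represent their muscle gene, 32 had the same sign of difference as the representing one and 8 the opposite sign.

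Arrays with the same replicate number did not deviate together (correlations over genes of −0.118, −0.220 and 0.0817 for numbers 1, 2 and 3). Arrays with different numbers ranged from −0.346 to 0.342, so these correlations cannot show whether arrays were paired. With the replicate number as a block, 6 muscle genes were lower and 1 higher, and 98 and 205 of all genes; Myh3, Myl4, Tnnc2 and Mymk were lost and Tnnt3 gained. Myf5 and Myf6 turned sign near 0. Over the fits that leave out 1 array, Myf5 ranged from −0.19 to 0.02 and Myf6 from −0.068 to 0.11. With both arrays numbered 1 left out Myf5 had 0.095 and Myf6 −0.065, and quantile normalisation gave Myf6 −0.005. Over the alternatives for the 23 genes given per array, 327 values kept direction and call, 36 gained a call, 60 lost one and these 8 turned sign. The cause was not tested; leaving out an array also leaves fewer samples.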
